A study of Mus musculus with 12 samples.

Results

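Cold-inducible RNA-binding proteins and the CLK kinase arm of splicing control were examined in mouse cerebellar cortex through 6 genes. The genes were Cirbp, Rbm3, Clk1, Clk2, Clk4 and Srsf5, picked by name for what their proteins do, with earlier results of these data known. They are 6 of the 54752 genes counted, and all 6 passed the filter on low counts in every comparison. RNA sequencing was performed on 12 wild-type (WT) male mice of the F1 hybrid C57BL6J/FVB, aged 12 weeks, with 4 mice on each of 3 diets and 1 library per mouse. Mice were fed ad libitum (AL), kept on dietary restriction (DR) or given a ketogenic diet (KD). DR mice had smaller portions, delivered once a day shortly before lights off, and were killed early in the dark phase with that day's portion withheld. The composition of the ketogenic diet and the hour of dissection of the KD mice are not given in the sources used here. The dissected piece spanned several folia and left out the cerebellar nuclei. Library totals ranged from 31712084 to 40798644 counts. Mice are named here by diet and a number that follows the order of the library numbers, and the labels name no pairs.

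Cirbp and Rbm3 encode small RNA-binding proteins with a single RNA recognition motif and a glycine-rich tail, and their transcripts are known to accumulate when mammalian cells are cooled by a few degrees. In the brain, Rbm3 is known for its link to synapse maintenance after cooling, and Cirbp for tuning the output of the circadian clock. The CLK kinases (Clk1, Clk2 and Clk4) phosphorylate SR proteins, the serine- and arginine-rich splicing factors to which Srsf5 belongs, and CLK activity is known to depend on temperature within the physiological range. Temperature was not among the measurements used here.

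The 6 genes lie on 6 chromosomes, and coordinates are given on GRCm38.p6. Cirbp (ENSMUSG00000045193.13) lies at chr10:80165985-80172786 on the plus strand and Rbm3 (ENSMUSG00000031167.16) at chrX:8138975-8145880 on the minus strand. Clk1 (ENSMUSG00000026034.17) is at chr1:58410189-58424066 on the minus strand. Clk2 (ENSMUSG00000068917.12) is at chr3:89164795-89176921, Clk4 (ENSMUSG00000020385.16) at chr11:51261730-51281766 and Srsf5 (ENSMUSG00000021134.17) at chr12:80945504-80950507, all on the plus strand. A count of any of these genes pools reads over all its annotated exons, whichever transcript they come from.

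That pooling matters here because the annotation of the 6 genes is rich in transcripts that keep an intron. Clk1 had 13 annotated transcripts, of which 1 was protein coding and 7 were of the retained-intron type, and 77.9% of its exonic bases lay outside the exons of the coding transcript. The shares for Clk4, Srsf5, Clk2 and Cirbp were 62.2%, 58.5%, 56.8% and 45.7%. Rbm3 was at the low end, with 23.9% of its exonic bases outside coding transcripts. Gene-level counts therefore do not separate spliced messenger RNA from intron-retaining RNA of these genes, and the library kit kept no strand. Rbm3 shared 2.0% of its exonic bases with the antisense gene Rbm3os (mean count 35.9, against 6035 for Rbm3), and Clk4 shared 1.02% with Gm25082 (mean count 89.75, against 5171). The processed copy Rbm3-ps held 11 to 37 counts per library.

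**Figure D1:**
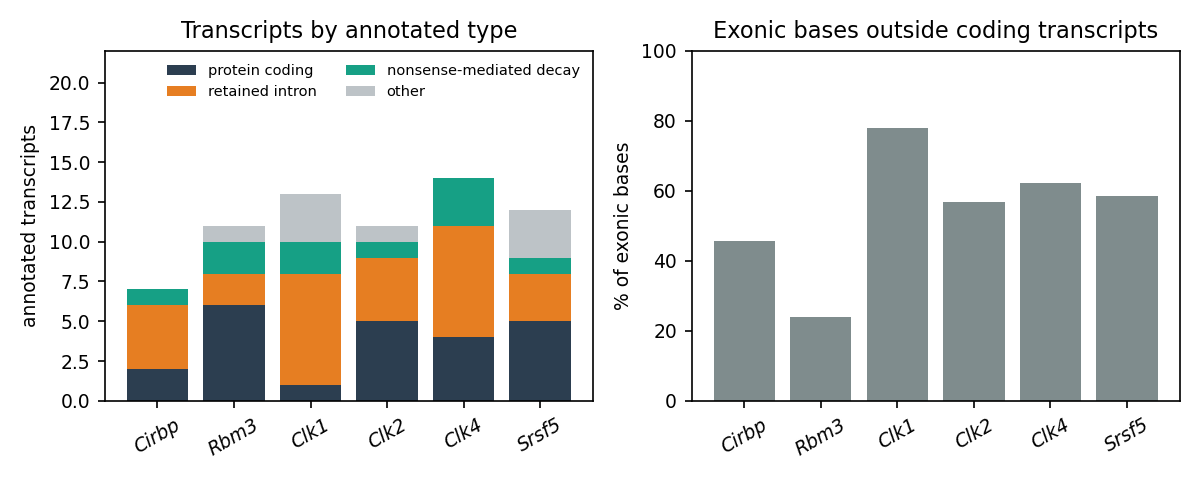
Annotated transcripts of the 6 genes by type (left, number of transcripts) and the percentage of each gene's exonic bases that lie outside its protein-coding transcripts (right). Clk1 had 1 coding transcript of 13 and the highest share of bases outside coding transcripts (77.9%), whereas Rbm3 had the lowest (23.9%).

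RefSeq promoter windows on GRCm38.p6 were held for 4 of the 6 genes, Cirbp (with a pair of start sites), Clk2, Clk4 and Srsf5. The stretch before the upstream Cirbp start is shown because Cirbp was the member with the largest diet difference and because its window held the octamer TCCCCGCC, known as the mild cold-responsive element of this gene. Srsf5 is shown beside it as the other member whose DR mice all lay above the AL mice. The Cirbp locus counted here begins further upstream, at position 80165985, so the printed Cirbp part lies inside the annotated gene. The Srsf5 window overlaps the gene Gm20337, whose 148 exonic bases there are not printed. The parts printed hold no annotated exon, read 5′ to 3′ on the plus strand, and capitals mark the octamer.
Cirbp, chr10:80167589-80167777: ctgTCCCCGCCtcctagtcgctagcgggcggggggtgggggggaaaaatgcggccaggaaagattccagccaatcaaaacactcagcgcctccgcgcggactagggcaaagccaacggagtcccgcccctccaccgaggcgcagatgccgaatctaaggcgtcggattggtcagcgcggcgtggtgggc
Srsf5, chr12:80945397-80945498: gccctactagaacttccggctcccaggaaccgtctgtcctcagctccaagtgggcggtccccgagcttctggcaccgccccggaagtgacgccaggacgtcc

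The Cirbp octamer began 247 bases before the start at position 80167839. Read on both strands, TCCCCGCC occurred in 5.38% of the 32851 RefSeq promoter windows of the same length (250 bases before to 50 after a start), and in none of the windows of Clk2, Clk4, Srsf5 or the downstream Cirbp start. The E-box CACGTG, bound by clock transcription factors, was found 159 bases before the Clk2 start and occurs in 7.15% of windows. The cAMP response element TGACGTCA was found 65 bases before the Clk4 start and occurs in 1.79%. That RefSeq start, at position 51263114, lies inside the annotated Clk4 gene, which begins at 51261730. Neither half-site arrangement of the heat shock element, GAANNTTC (7.86% of windows) or TTCNNGAA (8.52%), was present in the windows of these genes. These last strings are arrangements of 1 element, and none of the 5 strings holds another. A match describes letters in a window, not a bound site.

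All 6 genes were well expressed. Per kilobase of exon, the mean level over the 12 mice was 171 counts per 1000000 counts (CPM) per kb for Srsf5, 35.3 for Rbm3, 31.5 for Cirbp, 28.4 for Clk1, 24.5 for Clk4 and 11.7 for Clk2. On this length-scaled level Srsf5 stood above 99.2% of the 15477 genes averaging 1 CPM or more, and Clk2, the lowest, above 71.9%. Raw counts ranged from 1934, for Cirbp in its lowest library, to 29041, for Srsf5 in its highest. From here on, levels are given as CPM and compared within a gene only.

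Cirbp was higher in DR cerebellar cortex than on either other diet. The authors had already reported the rise of Cirbp on DR over AL from the same AL and DR libraries. Cirbp stood at 61.2, 70.0, 83.0 and 61.3 CPM in AL1 to AL4, at 96.1, 109.7, 106.6 and 98.0 CPM in DR1 to DR4, and at 79.3, 80.8, 65.9 and 73.8 CPM in KD1 to KD4. The lowest DR mouse lay above the highest AL mouse (AL3) and the highest KD mouse (KD2), while AL and KD mice were interleaved. Mean levels were 68.9 ± 10.3 CPM on AL, 102.6 ± 6.60 on DR and 75.0 ± 6.73 on KD (SD, n = 4 each). The DR level was 48.9% above AL (95% interval 31.8 to 68.2%), a log2 fold change of 0.57 (SE 0.08) and passed edgeR's quasi-likelihood test at an adjusted p of 0.00198. KD was 26.9% below DR (19.9 to 33.3% lower), a log2 fold change of -0.45 (SE 0.06, edgeR adjusted p = 0.000578). Both calls held when any 1 of the 8 mice was left out. Bulk tissue was measured, so a difference in how many cells express Cirbp and in how much RNA each cell holds cannot be told apart.

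Rbm3, the closest relative of Cirbp in this group and the other classical cold-inducible gene, did not pass the test between any diets. Rbm3 stood at 160.03, 174, 165 and 162 CPM in AL1 to AL4, at 176, 191, 168 and 159 CPM in DR1 to DR4, and at 163, 161, 172 and 142 CPM in KD1 to KD4. The lowest DR mouse lay below every AL mouse and the highest above every other mouse, so the diets overlapped throughout. DR against AL gave 5.05% (95% interval -3.09 to 13.9%), a log2 fold change of 0.07 (SE 0.05, edgeR adjusted p = 0.538). This interval lies wholly below the interval of Cirbp.

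The difference between the responses of Cirbp and Rbm3 was tested on the log2 ratio of the 2 genes in each mouse, a test chosen after the values were seen. The ratio was -1.27 ± 0.19 on AL, -0.76 ± 0.10 on DR and -1.09 ± 0.20 on KD (SD, n = 4), and was higher in every DR mouse than in any AL or KD mouse. The ratio differed by 0.51 between DR and AL and by -0.33 between KD and DR. Each gave an exact two-sided permutation p of 0.0286, which is the smallest that 4 mice against 4 allow, and 0.0514 after Benjamini-Hochberg adjustment over 9 such tests.

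**Figure D2:**
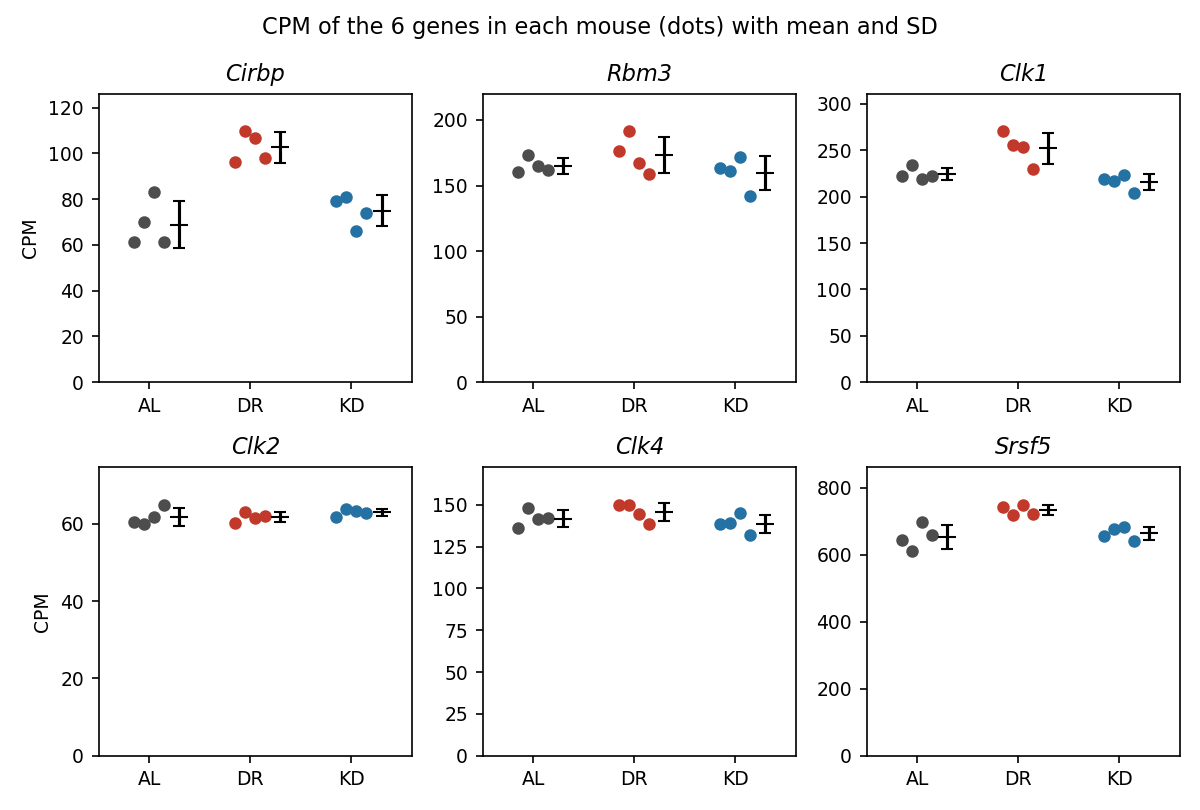
CPM of each gene in each of the 12 mice (dots, y axis from 0) by diet, with the mean and SD beside them (n = 4 per diet). The DR mice lie above all AL mice for Cirbp (96.1 to 109.7 against 61.2 to 83.0 CPM) and Srsf5, whereas Rbm3, Clk2 and Clk4 overlap between all diets.

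Clk1, the kinase with the fewest coding transcripts in the annotation, was lower on KD than on DR. Clk1 stood at 222, 234, 219 and 222 CPM in AL1 to AL4, at 271, 255, 253.5 and 230.2 CPM in DR1 to DR4, and at 219, 217, 223 and 204 CPM in KD1 to KD4. All DR mice lay above all KD mice, and DR4 alone of the DR mice fell under the highest AL mouse (AL2). KD was 14.5% below DR (7.96 to 20.6% lower), with a log2 fold change of -0.23 (SE 0.05) and an edgeR adjusted p of 0.0162. Without KD4 the log2 fold change was -0.20 with an edgeR adjusted p of 0.0584. DR against AL gave 12.5% (95% interval 4.50 to 21.1%), a log2 fold change of 0.17 (SE 0.05), and missed the threshold at an edgeR adjusted p of 0.0821.

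Clk2 and Clk4 did not pass the test in any comparison. Clk2 stood between 59.95 and 65.0 CPM in the AL mice, between 60.2 and 63.2 in the DR mice and between 61.8 and 64.0 in the KD mice. The DR and KD values lay inside the AL range, and the DR against AL difference was -0.16% (95% interval -6.46 to 6.57%, edgeR adjusted p = 0.987). Clk4 stood at 136, 148, 141 and 142 CPM in AL1 to AL4, at 149.9, 150.1, 145 and 139 in DR1 to DR4, and at 138, 139, 145 and 132 in KD1 to KD4. The 3 diets overlapped, and DR against AL was 2.81% (95% interval -3.64 to 9.70%, edgeR adjusted p = 0.693).

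Clk1 was then set against the other kinases within each mouse, again by tests chosen after the values were seen. The log2 ratio of Clk1 to Clk4 was 0.66 ± 0.03 on AL, 0.79 ± 0.05 on DR and 0.64 ± 0.02 on KD (SD, n = 4). Every DR mouse lay above every AL and KD mouse, with differences of 0.13 (DR against AL) and -0.15 (KD against DR) and an exact permutation p of 0.0286 for each (0.0514 adjusted over the 9 tests). Relative to Clk2, Clk1 differed by 0.17 between DR and AL, with overlap between mice (exact permutation p = 0.0571, adjusted 0.0857), and by -0.25 between KD and DR (exact permutation p = 0.0286, adjusted 0.0514). For KD against AL the 3 ratios (Cirbp to Rbm3 and both Clk1 ratios) had exact permutation p-values from 0.143 to 0.314.

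Srsf5, the SR protein of the group and its most abundant transcript, stood at 644, 612, 697 and 659 CPM in AL1 to AL4, at 742, 719, 749 and 722 CPM in DR1 to DR4, and at 654, 677, 683 and 640.4 CPM in KD1 to KD4. The DR mice were above all AL and all KD mice, which interleaved. DR against AL was 12.3% (95% interval 4.77 to 20.3%), a log2 fold change of 0.17 (SE 0.05), but the edgeR adjusted p was 0.0692. KD against DR was -9.44%, a log2 fold change of -0.14 (SE 0.04, edgeR adjusted p = 0.0554). Both values were close to the threshold of 0.05, and which side they fell on changed with the setting.

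Of the 6 genes, 1 (Cirbp) passed the test for DR against AL, where 3.06% of the 19052 genes tested passed. For the same comparison the mice of the diets did not overlap for 2 of the 6 (Cirbp and Srsf5), against 10.9% of all genes tested. The median log2 fold change of the 6 was 0.12, against 0.0036 over all genes tested, and the median absolute change of all genes was 0.10. For KD against DR, 2 of 6 passed (Cirbp and Clk1, both lower on KD), against 4.94% of 19087 genes, and 3 of 6 did not overlap (Cirbp, Clk1 and Srsf5), against 11.8%. The median of the 6 was -0.13, against -0.0024 over all genes. These 2 comparisons share the DR mice, so the same DR values stand behind both.

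KD and AL mice overlapped in all 6 genes. In edgeR 0 of 6 passed for KD against AL and 0 of 6 had an unadjusted p below 0.05. Across all 19036 genes tested the share that passed was 0%, with 928 genes at an unadjusted p below 0.05, and DESeq2 called 10 genes, none of them a member. Log2 fold changes ran from -0.05 (Clk1) to 0.12 (Cirbp), and none of the 6 was free of overlap, against 2.96% of all genes. For Cirbp the 95% interval of KD against AL was -4.16 to 23.9%, which lies below the DR estimate of 48.9% but does not leave out a smaller rise. KD against AL shares its AL mice with DR against AL.

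**Figure D3:**
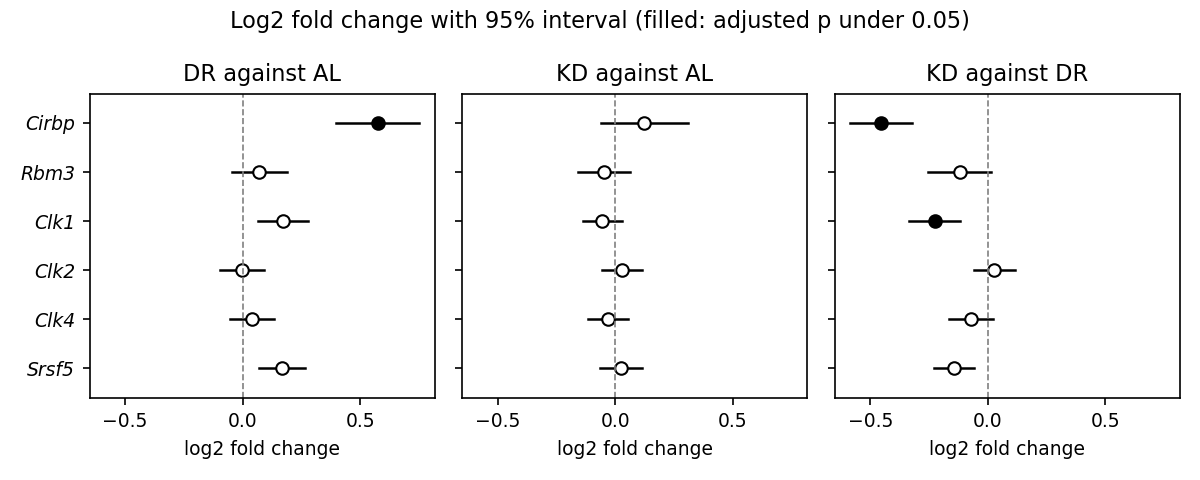
Log2 fold change (x axis) of each gene in the 3 comparisons, with 95% interval; filled points had an adjusted p below 0.05 in edgeR. Cirbp (0.57) was called for DR against AL, Cirbp (-0.45) and Clk1 (-0.23) for KD against DR, and every interval of KD against AL spans 0.

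Genes near these 6 in family and pathway gave few calls. Among the relatives Rbmx, Rbmx2 and Rbmxl1, which share the RNA recognition motif fold of Cirbp and Rbm3, 0 of 3 passed for DR against AL (log2 fold changes 0.0095 to 0.08). Of 8 genes of cold shock domain proteins, a family that binds single-stranded nucleic acids, 7 were tested and 0 passed for DR against AL. Carhsp1, one of these, was the exception for KD against DR, where it was lower on KD by a log2 fold change of -0.22 (SE 0.05, edgeR adjusted p = 0.0298). That call was lost without DR3, DR4 or any 1 KD mouse (highest edgeR adjusted p 0.0976). Of 7 genes tied to Rbm3 or Cirbp by earlier work (Rtn3, Trpv3, Trpv4, Hnrnph1, Ntrk2, Bdnf and Sp1), 0 passed in any comparison. Rtn3, a reticulon protein whose translation Rbm3 is known to promote, had a log2 fold change of -0.03 for DR against AL.

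The other SR proteins (12 genes, from Srsf1 to Tra2b) gave 0 calls in all 3 comparisons. Their median log2 fold change for DR against AL was -0.0074, within a range of -0.06 to 0.14. Srsf6 had the lowest p for DR against AL, with a log2 fold change of 0.14 (SE 0.05, edgeR adjusted p = 0.162) and no overlap between the DR and AL mice. Among the kinases related to the CLK family or active on SR proteins (SRPK, DYRK and HIPK genes, Prpf4b and Clk3), 13 of 14 were tested and 0 passed in any comparison. Clk3, the fourth CLK gene, had a log2 fold change of -0.02 (SE 0.05) for DR against AL. Dyrk1b (-0.25, edgeR adjusted p = 0.131) and Hipk2 (-0.30, edgeR adjusted p = 0.214) had the lowest p of that list for DR against AL. Both were more spread on DR than on AL. Hipk2 ran from 107 to 191 CPM on DR (SD 38.4, against 5.97 on AL), and the SD of Dyrk1b was 4.40 CPM on DR against 1.30 on AL.

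Of 23 SR-related and nuclear speckle genes, 0 passed for DR against AL and 1 for KD against DR. That gene was Srrm4, a neuronal splicing regulator, with a log2 fold change of 0.38 (SE 0.07, edgeR adjusted p = 0.00482). It passed with any 1 mouse left out. For DR against AL, Srrm4 stood at -0.25 (edgeR adjusted p = 0.124) and Sfswap, a regulator of splicing, at 0.17 (edgeR adjusted p = 0.116). Of 23 hnRNP genes, whose products often oppose SR proteins at splice sites, 0 passed in any comparison, and Hnrnpf (-0.09) and Ptbp3 (0.14) had the lowest p for DR against AL. The lists of other SR proteins and of hnRNP genes had 0 calls under all 14 alternative settings of each comparison.

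Chaperones, many of whose transcripts are known to rise on warming, were listed together with the heat shock factors Hsf1 and Hsf2. This list, called the heat-induced genes for short, included many genes that were lower where Cirbp was higher. Of 21 such genes, 12 passed for DR against AL, all lower on DR, with a median log2 fold change of -0.30. The largest were the inducible HSP70 genes Hspa1a (-1.15, SE 0.19, edgeR adjusted p = 0.00488) and Hspa1b (-1.13), followed by Hsph1 (-0.60) and the small heat shock protein gene Cryab (-0.58). For KD against DR 15 of 21 passed, all higher on KD, with a median of 0.27, led by Hspa1a (0.79), Hspa1b (0.77), Cryab (0.65) and Hspb1 (0.64). For KD against AL 0 of 21 passed. With 1 mouse left out, the count for DR against AL was 6 without AL1, AL2, AL4, DR1, DR2 or DR3, 10 without DR4 and 17 without AL3. Heat shock genes were picked with their fall on DR known from earlier work on these libraries.

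AL3 joined the highest Cirbp level of the AL mice (83.0 CPM) to the lowest mean of the 21 heat-induced genes (6.64 log2 CPM, against 6.94 to 7.05 in the other AL mice). KD3 had the lowest Cirbp level of the KD mice and the highest mean of these genes (6.97). Means of the DR mice ran from 6.46 to 6.62. With diet means removed, Cirbp and this mean had a Pearson r of -0.85 over the 12 mice (exact permutation within diets, p = 0.00767, adjusted 0.0192 over 5 relations) and a Spearman rho of -0.76 (permutation p = 0.0158, adjusted 0.0396). Without the 2 mice farthest from the median (AL3 and KD3), r was -0.69. The relation was chosen after the values were seen. The authors had already reported a strong negative correlation of heat shock genes with Cirbp in the AL and DR mice, which are among these 12. Its p-values are therefore a description and not independent support.

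The members were compared with each other in the same way, within diets. Clk1 and Clk4 varied together, with r = 0.84 (exact permutation p = 0.00195, adjusted 0.00781 over 4 relations) and rho = 0.86 (permutation p = 0.00224, adjusted 0.00897), and r was 0.85 without DR1 and DR4. Cirbp and Rbm3 had r = 0.14 (exact permutation p = 0.646, adjusted 0.845) and rho = 0.13 (p = 0.699, by permutation, adjusted 0.921). Cirbp and Clk1 had r = -0.06 (exact permutation p = 0.818) and rho = -0.07 (permutation p = 0.840), and Clk1 and Srsf5 had r = 0.05 (exact permutation p = 0.845) and rho = 0.03 (permutation p = 0.921). All 15 pairs of members were then computed, the others having been chosen after the values were seen. Rbm3 and Clk4 had the highest r, at 0.90 (exact permutation p = 0.00101, adjusted 0.0146 over the 15 pairs), with rho = 0.91 (permutation p = 0.00130, adjusted 0.0168) and r = 0.91 without DR2 and KD4. Clk1 and Clk4 had the same adjusted permutation p over 15 pairs, 0.0146. Rbm3 and Clk1 had r = 0.75 (exact permutation p = 0.0231, adjusted 0.115) and rho = 0.81 (permutation p = 0.00752, adjusted 0.0376), and r = 0.80 without DR2 and KD4, so that its rank correlation passed and its r did not. The r of the remaining 12 pairs, among them every pair with Cirbp, Clk2 or Srsf5, ran from -0.33 to 0.32 and did not pass after adjustment. With diet means removed, Clk4 thus varied with Rbm3 and with Clk1 over the 12 mice, although the genes did not rank the mice identically within each diet. A relation of Cirbp with Rbm3 or Clk1 was not detectable with these 12 mice.

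**Figure D4:**
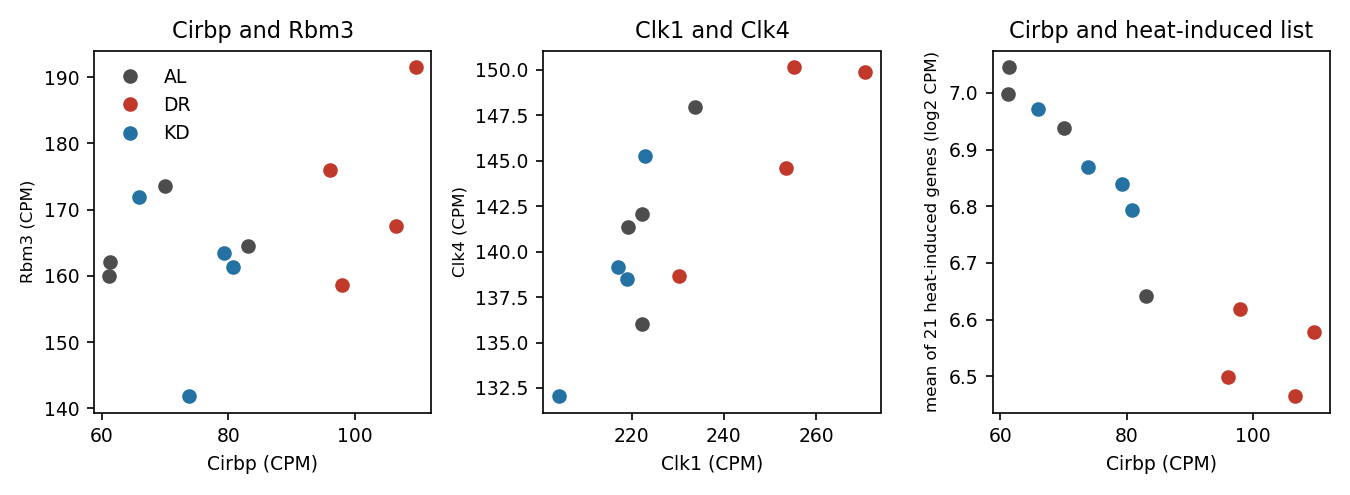
Each mouse (dot, coloured by diet) by Cirbp and Rbm3 (left, CPM), Clk1 and Clk4 (middle, CPM) and Cirbp (CPM) against the mean log2 CPM of the 21 heat-induced genes (right); axes do not start at 0. With diet means removed, r was 0.14, 0.84 and -0.85.

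Genes whose levels tracked a member most closely over all 12 mice were named from 10074 genes averaging 10 CPM or more, as a description in which diet and library are shared by all points. For Cirbp the highest r were those of Tmem143 (0.96), Exoc1 (0.95), C77080 (0.95), Cc2d2a (0.94) and the nuclear long non-coding RNA Neat1 (0.94). Among its 5 lowest were Hsp90ab1 (-0.97), Chordc1 (-0.96), Pdia3 (-0.96) and Hspa8 (-0.96), of which Hsp90ab1, Chordc1 and Hspa8 are in the heat-induced list and Pdia3 is a chaperone of the endoplasmic reticulum. For Rbm3 the highest were Stag1 (0.93), Mllt10 (0.93), Kdsr (0.93), Clk4 (0.92) and Dnajc13 (0.90), and the lowest Mkrn1 (-0.94), Pik3cb (-0.89), Smim7 (-0.87), Hepacam (-0.87) and Rnf144a (-0.86). Clk4 thus stood in place 4 of the genes nearest to Rbm3, while Rbm3 stood in place 2076 of those nearest to Cirbp. Among the genes nearest to Clk1, Clk4 stood in place 116 and Rbm3 in place 263. For Clk1 the highest were Gm12940 (0.97), Lrif1 (0.96), Gm3435 (0.96), the microRNA processing gene Dgcr8 (0.96) and Slc25a27 (0.94), and the lowest Pcdhac2 (-0.96), Enoph1 (-0.94), the glial potassium channel gene Kcnj10 (-0.93), Insyn1 (-0.92) and the myelin gene Mag (-0.92).

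Core clock genes were looked at because Cirbp acts on the clock. The AL and DR mice were killed over a window of hours early in the dark phase, across which the authors saw core clock genes change in both diets. The hour of each mouse was not used here. As the hour is not given for the KD mice, hour and diet cannot be told apart in comparisons with KD. Of 19, 2 passed for DR against AL, among them Per2 (-0.38, SE 0.09, edgeR adjusted p = 0.0406), and 9 had an unadjusted edgeR p below 0.05. The authors had called Nr1d1, Per1 and Per2 lower on DR from the same AL and DR libraries. In the fit used here Per1 (-0.26, edgeR adjusted p = 0.0922) and Nr1d1 (-0.45, edgeR adjusted p = 0.108) did not pass. For KD against DR 1 of 19 passed, and for KD against AL 0 of 19. The Per2 call was lost without any 1 of AL1, AL2, AL4, DR1, DR3 or DR4 (highest edgeR adjusted p 0.117). Without DR2, 8 of 19 passed for DR against AL and 5 for KD against DR. Their part in the Cirbp difference was not tested.

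The labelled tissue was checked by its markers, whose sums are not scaled for length and are compared within a list only. Granule cell markers (5 genes) summed to 3096 to 3456 CPM over the 12 mice and Purkinje cell markers (5 genes) to 5221 to 6707 CPM, so both cell types of the cerebellar cortex were represented in every library. The 3 markers of the cerebellar nuclei summed to 44.7 to 54.1 CPM. Nearly all of that was Slc6a5 (44.8 CPM on AL, 46.6 on DR and 46.3 on KD), a glycine transporter gene that interneurons of the cortex also express, while Slc17a6 averaged 0.216, 0.347 and 0.206 CPM. Some cell type markers moved with DR beside the members. Purkinje cell markers summed to 5221 to 6067 CPM on DR against 6247 to 6707 on AL, and 1 of 5 passed, lower on DR. Most of that sum was Itpr1 (mean 4394 CPM on AL and 3769 on DR, edgeR adjusted p = 0.0869), while Pcp2 and Pcp4 overlapped between DR and AL. Bergmann glia and astrocyte markers summed to 1547 to 1603 CPM on DR against 1750 to 1882 on AL, with 2 of 5 called lower. Most of that sum was Slc1a3 (mean 1324 CPM on AL and 1184 on DR, edgeR adjusted p = 0.0749), while Gdf10 and Gfap overlapped between DR and AL. Oligodendrocyte markers summed to 1932 to 2408 CPM on DR against 2055 to 2655 on AL, with 1 of 5 called lower. The sums of the granule cell, microglia, endothelium, choroid plexus, red blood cell and cerebellar nuclei markers overlapped between DR and AL, with 0 of their markers called. For KD against DR, 1 Purkinje cell, 2 Bergmann glia and astrocyte, 2 oligodendrocyte and 1 choroid plexus markers passed, all higher on KD. No marker was under 0.1 CPM in every library, and the part of cell makeup in the results above was not tested.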

How the data were processed

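Paired-end poly(A) libraries (TruSeq RNA v2) were made from cerebellar cortex of 12 mice. The deposited table holds raw counts per gene, which the authors obtained with Trimmomatic 0.39, STAR 2.7.0f and featureCounts of Subread 1.6.4 on GRCm38.p6 with GENCODE annotation. The strand setting of the counting is not given in the sources used here, and AL and DR libraries were chosen by RNA quality. Symbols were matched for 54723 of 54752 gene identifiers.

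From these counts, the 8 libraries of each comparison were fitted alone with edgeR 4.0.16 (R 4.3.3): filterByExpr (minimum count 10, minimum total 15), TMM scaling and the quasi-likelihood test, with p-values adjusted after Benjamini and Hochberg across every gene tested and a threshold of 0.05. CPM values were put on one TMM scale over the 12 libraries, with a prior count of 2 for log2 values. Same-diet libraries differed by more than sampling noise, with chi-square per gene from 4.95 to 11.6 over 18 pairs. The fit was also run on simulated counts for DR against AL, with planted changes larger than those of Clk1 and Srsf5. Its outcome is not reported here. The alternatives were DESeq2 1.42.0 and its size factors, library size alone, no low-count filter, a mean above 10 CPM, 1 fit of all 12 libraries and leaving out each mouse.

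Members, gene lists and tests were chosen with earlier results of these data known. Genes named were the 6 members and, per list and comparison, up to 4 called genes with the largest change or, with none called, up to 2 with the lowest p, the 5 genes nearest to and farthest from Cirbp, Rbm3 and Clk1, and genes whose exons overlap a member. Outside this rule, Rtn3, Clk3, Rbmx2 and the gene names that define a list were named for what they are, after their values were seen. Per1 and Nr1d1 were named because the authors had called them. Some genes that the rule selects are not reported here.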

Additional observations from a re-analysis of the deposited data

How the results depend on the processing

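The Cirbp calls held in every alternative, with log2 fold changes of 0.52 to 0.68 for DR against AL (highest adjusted p 0.0108, edgeR) and -0.49 to -0.40 for KD against DR. The count of members called for DR against AL was 1, but 2 with library size only and 3 with the DESeq2 test, without the low-count filter and with all 12 libraries in 1 fit. Leaving out 1 mouse gave 1 to 2, the higher count without AL3 (Srsf5, edgeR adjusted p = 0.0252) or DR4 (Clk1, 0.0307, edgeR). Srsf5 for DR against AL passed with library size only (edgeR adjusted p = 0.0428), the DESeq2 test (0.0147), no low-count filter (0.0291) and 1 fit of 12 libraries (0.0294), and Clk1 passed in the last 3 (0.0332, 0.0345 and 0.0472). Srsf5 for KD against DR passed with library size only (edgeR adjusted p = 0.0237), the DESeq2 test (0.00627) and a mean above 10 CPM (0.0345). For KD against DR, leaving out 1 mouse gave 1 to 2 members called, the lower count without KD4.

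Changes near 0 turned sign. Clk2 for DR against AL (-0.0022) was 0.019 with library size only, 0.0061 with a mean above 10 CPM and -0.017 to 0.022 with 1 mouse left out. With 1 mouse left out, KD against AL ran from -0.083 to 0.0039 for Rbm3 and from -0.0071 to 0.059 for Srsf5. Without removal of diet means, r was 0.40 for Cirbp and Rbm3, 0.66 for Cirbp and Clk1 and 0.68 for Clk1 and Srsf5. With diet means removed, where these r were 0.14, -0.06 and 0.05, leaving out the 2 mice farthest from the median gave 0.45, 0.19 and -0.15. The cause of these shifts was not tested.

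Over the 14 alternatives, the calls for DR against AL ranged from 6 to 17 of the heat-induced genes, 1 to 8 of the clock genes, and 0 to 2 each of the SR-related genes and the related kinases. Over all genes, DR against AL gave 583 calls, 1012 with the DESeq2 test, 1258 without the filter and 235 to 712 with 1 mouse left out. KD against DR gave 942, 1503 without the filter and 467 to 946 with 1 mouse left out, and KD against AL gave 0, 10, 118 and 0 to 6. With library size only, DR against AL calls split 322 higher and 243 lower, against 252 and 331 with TMM, and KD against DR calls 376 and 617, against 463 and 479. No paired analysis was run, as the labels name no pairs. Library numbers 6 to 8, 9 to 11, 12 to 14 and 15 to 17 each held 1 mouse of every diet. What this order stands for is not stated, and a fit blocked on it was not run. With 4 mice per diet, differences of the size of Clk1 and Srsf5 on DR lay at the edge of what could be called.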
